A study of Mus musculus with 54 samples.

Results

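The glutathione and NRF2 antioxidant genes are the enzymes that make, use and recycle glutathione, the other enzymes that remove peroxide and superoxide, and the regulators of the NRF2 response. They were chosen by gene symbol: every gene whose symbol starts with Gst plus a class letter and a number, Gpx, Prdx or Txnrd plus a number, or is Sod1, Sod2, Sod3, Gclc, Gclm, Gss, Gsr, Nqo1, Nfe2l2, Keap1, Txn1, Srxn1, G6pdx or Pgd. The rule found 54 genes among the 55487 rows of the expression table, with 2 further symbols left out because they carry the pseudogene suffix. Of the 54, 43 reached 1 TPM (a share of transcripts that corrects for transcript length and library size) in at least 5 libraries and were tested together with the other genes that did, 12742 in all. The 11 members that did not reach that level were Gsta1, Gstm3, Gstm6, Gsto2, Gstt4, Gpx2, Gpx5, Gpx6, Gpx7, Prdx6b and Prdx2-rs3, and 4 of these (Gstm3, Gpx5, Prdx6b and Prdx2-rs3) were listed at 0 in all 48 libraries.

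Glutathione is a tripeptide that is made in the cytosol by glutamate-cysteine ligase, whose catalytic subunit is Gclc and whose modifier subunit is Gclm, and then by glutathione synthetase, Gss. Glutathione peroxidases (Gpx) spend it on peroxides, glutathione S-transferases (Gst) attach it to reactive molecules, and glutathione reductase (Gsr) restores it with NADPH. NRF2, the product of Nfe2l2, is a transcription factor that is held down by KEAP1 and, when released, raises many of these genes through antioxidant response elements in DNA. The early proximal tubule reabsorbs most filtered glucose through SGLT2 and is rich in mitochondria, and the kidney's proximal tubules are the main source of the secreted peroxidase GPX3 of blood plasma.

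The libraries came from SGLT2-positive early proximal tubules that were cut from kidney sections by laser capture, with 70 to 80 tubules and 0.5 ng of RNA for each library. All mice were male, of the DBA strain and 14 weeks old, and all treatments lasted 2 weeks. Non-diabetic mice (Ins2+/+) and their diabetic littermates (Ins2 Akita/+, a dominant insulin mutation that causes insulin-deficient diabetes) were either Sglt1+/+ (wild type) or Sglt1-/- (knockout of the glucose transporter SGLT1, encoded by Slc5a1). The 48 libraries with expression values fell into 9 groups. Without diabetes there were 5 wild-type and 5 knockout libraries on vehicle, and 4 wild-type and 6 knockout libraries on the SGLT2 inhibitor dapagliflozin at 10 mg per kg diet. With diabetes there were 6 wild-type and 6 knockout libraries on vehicle, 5 wild-type and 6 knockout libraries on dapagliflozin, and 5 wild-type libraries on the GLP-1 receptor agonist semaglutide at 3 nmol per kg body weight per day, injected under the skin. The labels do not tie libraries to animals, so p-values measure the spread between these libraries.

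TPM is a share of each library, so read depth is unknown, and 8465 to 11419 genes reached 1 TPM per library. Slc5a1 was at 0.814 to 4.29 TPM in the 25 wild-type libraries and at 0 to 0.123 TPM in the 23 knockout libraries. The 7 markers of early proximal tubule summed to 823 to 2037 TPM, against 1.37 to 22.8 TPM for 5 podocyte markers, 19.7 to 156 TPM for 5 thick ascending limb markers and 1.32 to 232 TPM for 3 markers of distal convoluted tubule. The largest single row of a library took 36.8% to 64.4% of its TPM. Nuclear protein-coding genes, counted here and below without Lars2, made up only 5.97% to 14% of TPM. Their mean share was 8.58% and 8.76% in the wild-type and knockout Akita vehicle groups and 10.4% in both Akita dapagliflozin groups.

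RefSeq promoter windows of 300 bases, from 250 before to 50 after a gene's start, were given for 46 of the 54 members on GRCm38.p6. They were searched on both strands for TGACNNNGC and TGAGNNNGC, the core of the antioxidant response element to which NRF2 binds. These are shown for the members that carry the dapagliflozin result (Sod1, Gstp1 and Gstm1) and for 2 textbook NRF2 targets that did not pass the same test (Txnrd1 and Gclm). Each is written 5′ to 3′ on the gene's strand with every match in capitals. A match on the opposite strand reads as its reverse complement, starting with GC.

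Sod1 (chr16:90220512-90220811, plus strand): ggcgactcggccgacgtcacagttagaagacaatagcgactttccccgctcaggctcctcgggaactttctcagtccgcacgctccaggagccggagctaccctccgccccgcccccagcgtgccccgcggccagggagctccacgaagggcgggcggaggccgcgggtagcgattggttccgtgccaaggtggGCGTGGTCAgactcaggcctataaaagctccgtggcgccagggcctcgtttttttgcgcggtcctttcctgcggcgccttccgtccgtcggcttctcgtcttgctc

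Gstp1 (chr19:4037863-4038162, minus strand): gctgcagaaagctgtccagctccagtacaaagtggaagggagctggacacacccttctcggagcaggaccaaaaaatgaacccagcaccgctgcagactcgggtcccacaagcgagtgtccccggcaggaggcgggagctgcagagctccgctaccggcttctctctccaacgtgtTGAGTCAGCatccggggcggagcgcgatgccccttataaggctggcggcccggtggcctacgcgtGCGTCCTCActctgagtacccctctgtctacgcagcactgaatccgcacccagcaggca

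Gstm1 (chr3:108017924-108018223, minus strand): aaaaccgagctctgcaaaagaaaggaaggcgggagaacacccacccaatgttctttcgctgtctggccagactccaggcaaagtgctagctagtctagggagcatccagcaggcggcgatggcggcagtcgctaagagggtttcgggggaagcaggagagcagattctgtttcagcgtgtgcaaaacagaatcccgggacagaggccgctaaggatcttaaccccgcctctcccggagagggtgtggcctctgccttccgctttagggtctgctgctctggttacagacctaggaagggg

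Txnrd1 (chr10:82858956-82859255, plus strand): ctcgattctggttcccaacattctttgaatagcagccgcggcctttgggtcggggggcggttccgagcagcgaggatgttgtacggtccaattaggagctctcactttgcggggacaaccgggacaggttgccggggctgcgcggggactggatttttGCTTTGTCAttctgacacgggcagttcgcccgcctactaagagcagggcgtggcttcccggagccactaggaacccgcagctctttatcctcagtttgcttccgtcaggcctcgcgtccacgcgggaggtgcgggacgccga

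Gclm (chr3:122245307-122245606, plus strand): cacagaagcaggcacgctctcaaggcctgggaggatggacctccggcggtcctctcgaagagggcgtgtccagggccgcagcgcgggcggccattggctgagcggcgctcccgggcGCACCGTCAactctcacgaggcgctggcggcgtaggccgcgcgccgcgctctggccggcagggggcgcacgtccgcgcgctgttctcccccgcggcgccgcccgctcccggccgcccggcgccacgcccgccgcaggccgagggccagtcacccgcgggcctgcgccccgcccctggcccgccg

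The Sod1 window held 1 match, starting 56 bases before the gene's start, and the Gstp1 window held 2, starting 74 and 9 bases before it. The Txnrd1 match started 92 bases and the Gclm match 134 bases before the start used for the window. Txnrd1 has 3 windows, and the other 2 held no match. The window shown lies inside the gene, which begins at chr10:82833951 in the gene annotation. Neither of the 2 windows of Gstm1 held a match. Of the NRF2 targets not shown, Nqo1 had no match and Srxn1 had matches of both motifs. At least 1 of the motifs was present for 17 of the 46 members (37.0%) and for 30.8% of the 27025 genes with a window, and TGACNNNGC alone for 23.9% of members and 14% of genes. Gclc, Gsr, Prdx6, Sod3, Gstt2, Gsta4, Prdx6b and Prdx2-rs3 were the members with no window in the table. A match is a description of the letters only, and its absence says nothing of the factor.

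Gpx3, which encodes the secreted glutathione peroxidase, had the highest median level of the 20997 nuclear protein-coding genes that were ranked. Lars2, itself a nuclear protein-coding gene, was left out of that ranking, so its place beside Gpx3 is not given. The median of Gpx3 over the 48 libraries was 2388 TPM, with a range of 1182 to 4734 TPM. Gpx3 alone took 1.55% to 3.37% of the TPM of nuclear protein-coding genes, and the 54 members together took 2.47% to 4.33%. Gpx1, the cytosolic and mitochondrial peroxidase, followed with a median of 232 TPM and rank 20. Peroxiredoxin Prdx5 stood at 112 TPM and rank 63, and the cytosolic superoxide dismutase Sod1 at 79.9 TPM and rank 103.

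The 3 superoxide dismutases were all well expressed, with medians of 64.9 TPM for the mitochondrial Sod2 and 52.5 TPM for the extracellular Sod3 beside Sod1. Gpx4, which reduces lipid peroxides, had a median of 44.7 TPM, but 66.8% of its 31-base stretches also occur in other genes, chiefly a pseudogene. Among the transferases, Gstt2 (54.7 TPM) and Gstz1, an enzyme of tyrosine breakdown (27.4 TPM), exceeded Gstm1 (15.4 TPM) and Gstp1 (10.7 TPM). Glutathione synthetase Gss, at 31.2 TPM, exceeded both subunits of the ligase, Gclm at 12.9 TPM and Gclc at 11 TPM.

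The cofactor enzymes and regulators were lower. Glutathione reductase Gsr had a median of 13.6 TPM, the cytosolic thioredoxin reductase Txnrd1 10.6 TPM and thioredoxin Txn1 7.96 TPM. Nfe2l2 stood at 4.75 TPM and its repressor Keap1 at 2.86 TPM. The classical NRF2 target Nqo1, a quinone reductase, reached only 1.43 TPM, the peroxiredoxin repair enzyme Srxn1 2.96 TPM, and G6pdx, which makes NADPH, 1.07 TPM.

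**Figure D1:**
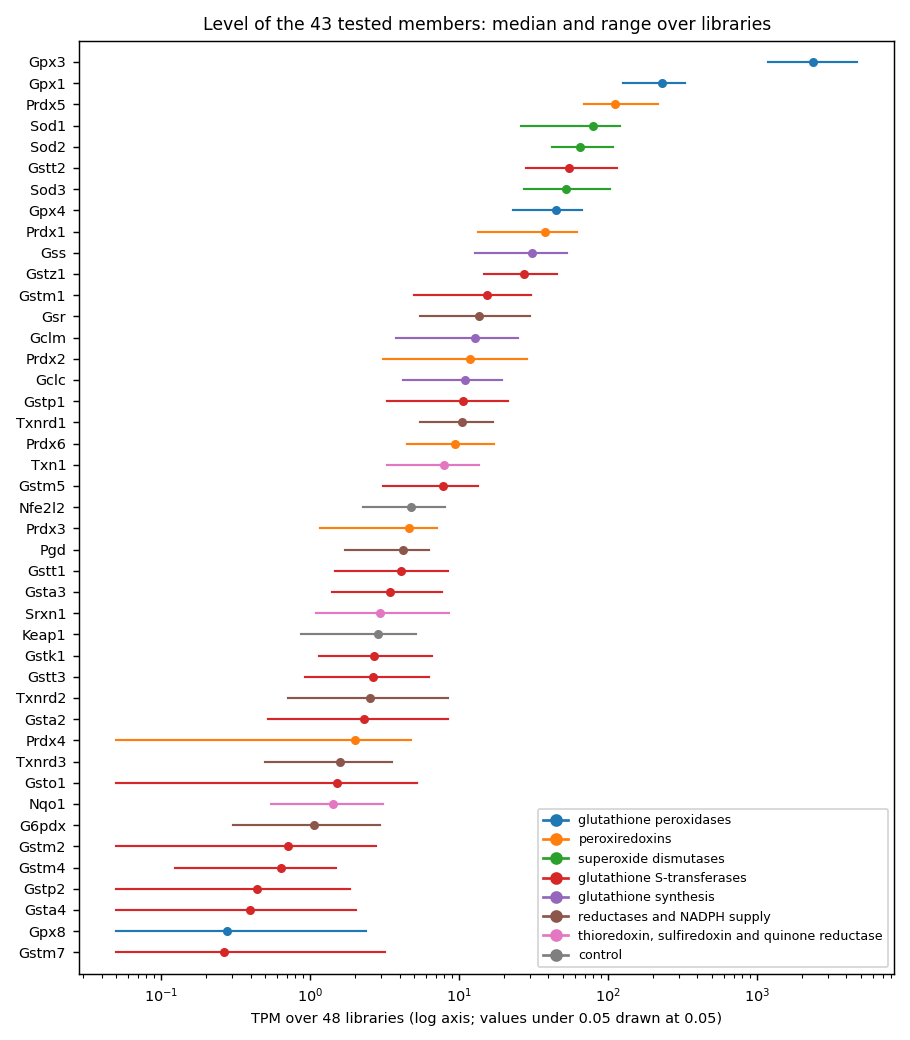
Median (point) and range (line) of TPM over 48 libraries for the 43 tested members, on a log axis, coloured by role. Gpx3 at a median of 2388 TPM stands above Gpx1 at 232 TPM, while Nqo1 and G6pdx lie near 1 TPM.

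The estimated change of the abundant peroxidases between diabetic and non-diabetic mice depended on the scaling, from near 0 in the main test to above 0 under the others. Gpx3 was at 1804, 1842, 2210, 2722 and 2809 TPM in the 5 non-diabetic wild-type vehicle libraries. In Akita wild type on vehicle its lowest, median and highest values were 1474, 2620 and 2998 TPM. The groups overlapped, and the log2 change of TPM + 1 with diabetes, averaged over genotypes, was -0.03 ± 0.18 (SE). For Gpx1 the same change was -0.00 ± 0.14 (SE). Under median-of-ratios scaling, nuclear rescaling and quantile normalization Gpx3 instead had 0.26, 0.26 and 0.10, and Gpx1 0.28, 0.28 and 0.32, none called (adjusted p by limma of 0.252 or more). The unadjusted p by limma was 0.0357, 0.0240 and 0.546 for Gpx3, and 0.0113, 0.00586 and 0.00587 for Gpx1. As a share of nuclear protein-coding TPM, the group means of Gpx3 were 2.15% to 2.28% in the 4 non-diabetic groups and 2.39% to 2.84% in the 5 Akita groups, with overlapping libraries. The 54 members together had group means of 3.03% to 3.23% and 3.37% to 3.81% in the same order. Most of this sum was Gpx3. The members other than Gpx3 together had group means of 0.838% to 0.952% and 0.938% to 0.985%, which overlapped. The changes in this text, unless another scaling is named, are on the scale of the main test, in which limma was fitted to log2(TPM + 1) over all 9 groups, p-values were adjusted by Benjamini-Hochberg over the 12742 genes of a comparison, and "called" means that this adjusted p was under 0.05.

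Dapagliflozin in Akita mice, averaged over genotypes, was the comparison in which members passed the test. Gstm1, Sod1, Gstp1 and Gclc rose: 4 of the 43 tested members (9.30%), all upward, where 0.816% of all tested genes were called and 0.801% were called upward. In all, 40 of the 43 members, the 4 called ones included, had a change above 0, with a median of 0.34, where the median of all genes was 0.17. Under 3 other scalings of the libraries the members above 0 numbered 31, 31 and 32 of 43, with medians of 0.13, 0.11 and 0.12 where those of all genes were -0.01, -0.02 and -0.00. At an unadjusted p under 0.05 there were 19 members (44.2%), all higher, against 17.5% of all genes. Under the other scalings 5, 6 and 7 members (11.6%, 14% and 16.3%) had such a p, against 11%, 11.1% and 11% of all genes. These counts take either direction. TPM is a share, and the nuclear protein-coding share of the libraries also differed between these groups, as given above. Whether more RNA per cell, a different mix of cells or that share lies behind the changes with dapagliflozin cannot be told apart here.

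Gstm1, a mu-class transferase, lies at chr3:108012255-108017973 on the minus strand. It was at 4.99, 8.26 and 16.7 TPM (lowest, median and highest) in Akita wild type on vehicle. On dapagliflozin the 5 wild-type libraries were at 9.14, 14.4, 21.6, 22.0 and 27.1 TPM. In the knockout Gstm1 was at 6.55, 10.1 and 22.5 TPM on vehicle and at 12.8, 16.6 and 28.0 TPM on dapagliflozin.

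All 11 treated libraries thus exceeded the median of their vehicle group for Gstm1, although the ranges overlapped in both genotypes. The log2 change averaged over genotypes was 0.81 ± 0.19 (SE), adjusted p = 0.0319 by limma. It was 0.96 ± 0.28 in wild type and 0.65 ± 0.27 in knockout, neither called alone (adjusted p = 0.249 and 0.648 by limma). Of its 31-base stretches, 34.3% also occur in other genes, chiefly the pseudogene Gstm2-ps1, so its reads may have been divided between copies.

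Sod1, the copper-zinc superoxide dismutase of the cytosol, lies at chr16:90220754-90226329 on the plus strand. Akita wild type on vehicle held the lowest library of all, 26.3 TPM, with a median of 57.4 and a highest value of 86.3 TPM. On dapagliflozin the 5 wild-type libraries lay close together at 81.9, 87.3, 89.3, 90.6 and 90.6 TPM. The knockout was at 43.1, 62.2 and 80.0 TPM on vehicle and at 59.9, 85.3 and 120 TPM on dapagliflozin.

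For Sod1, 10 of 11 treated libraries exceeded their vehicle median and the ranges overlapped in both genotypes. The averaged log2 change was 0.54 ± 0.13 (SE), adjusted p = 0.0359 by limma. In wild type it was 0.71 ± 0.19 and in knockout 0.38 ± 0.18, neither called. Sod1 shares 35.4% of its 31-base stretches with other genes, chiefly the pseudogene Gm8566.

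Gstp1, the pi-class transferase, lies at chr19:4035407-4037985 on the minus strand. In Akita wild type on vehicle it was at 3.31, 7.81 and 14 TPM, against 10.2, 10.4, 15.3, 20.6 and 21.3 TPM in the 5 libraries on dapagliflozin. In the knockout it was at 5.35, 8.67 and 14.7 TPM on vehicle and at 9.14, 13.8 and 17.1 TPM on dapagliflozin. Again 11 of 11 treated libraries exceeded their vehicle median, with overlapping ranges.

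The averaged change of Gstp1 was 0.75 ± 0.19 (SE), adjusted p = 0.0464 by limma, from 0.92 ± 0.28 in wild type and 0.58 ± 0.27 in knockout. It shares 67.5% of its 31-base stretches with Gstp2, its neighbour, so the level of Gstp1 is uncertain between the 2 genes. Gstp2 itself had a median of 0.443 TPM and an averaged change of 0.42 ± 0.20 (adjusted p = 0.271 by limma).

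Gclc, the catalytic subunit of glutamate-cysteine ligase and the rate-limiting enzyme of glutathione synthesis, lies at chr9:77754535-77794485 on the plus strand and shares no 31-base stretch with another gene. It was at 4.22, 6.96 and 13.1 TPM in Akita wild type on vehicle and at 6.86, 12.9, 14.1, 16.3 and 19.4 TPM on dapagliflozin. In the knockout it was at 5.91, 8.40 and 13.4 TPM on vehicle and at 10.6, 11.4 and 14.2 TPM on dapagliflozin. In 10 of 11 treated libraries Gclc exceeded the vehicle median, and the ranges overlapped.

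The averaged change of Gclc was 0.61 ± 0.16 (SE), adjusted p = 0.0467 by limma, with 0.79 ± 0.23 in wild type and 0.43 ± 0.22 in knockout.

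**Figure D2:**
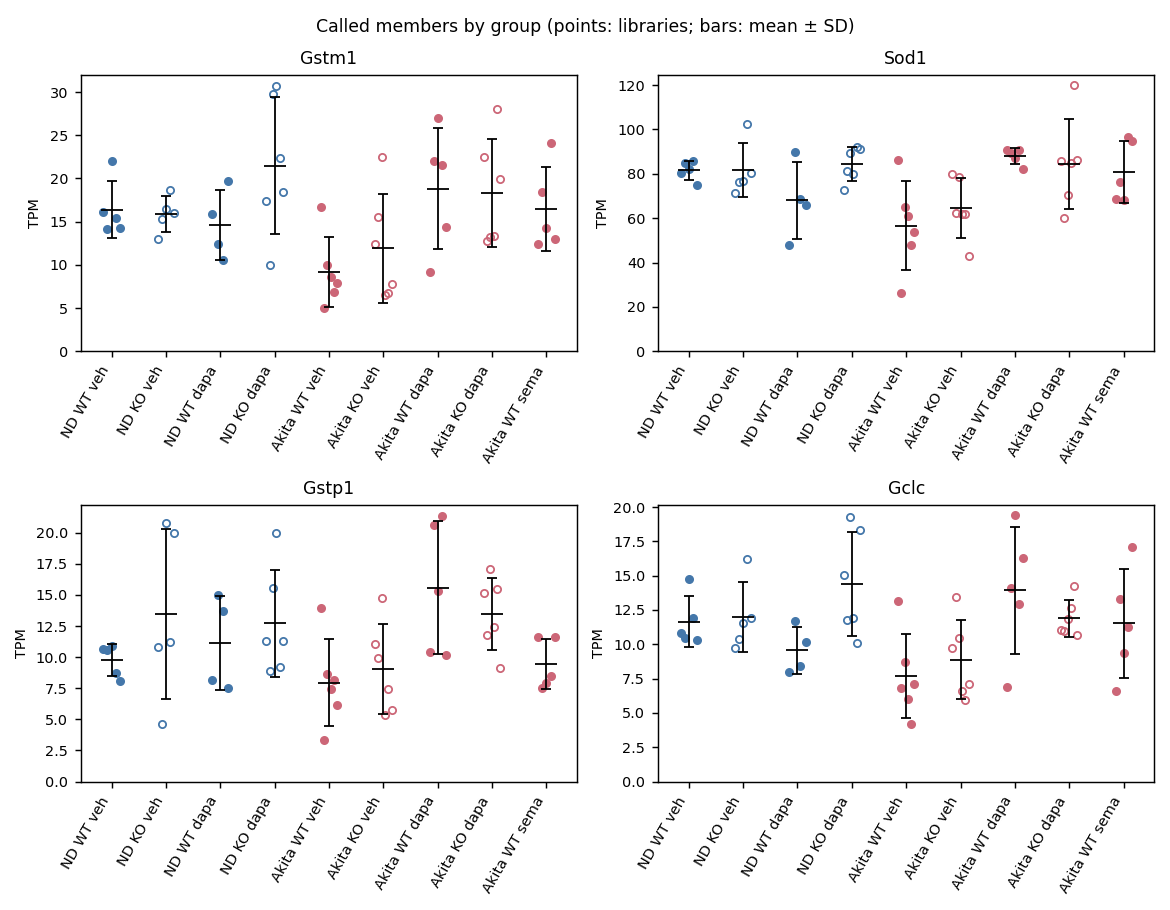
TPM of Gstm1, Sod1, Gstp1 and Gclc in each library of the 9 groups (ND, non-diabetic; WT, wild type; KO, Sglt1 knockout; veh, vehicle; dapa, dapagliflozin; sema, semaglutide), with mean and SD. The Akita vehicle groups have the lowest means of each panel, and their libraries overlap those on dapagliflozin.

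By role, all 3 genes of glutathione synthesis were above 0 with dapagliflozin in Akita, where only 19.2% of all genes were below 0. Gclc was called. The modifier subunit Gclm (0.52 ± 0.22, adjusted p = 0.212 by limma) and Gss (0.42 ± 0.17, adjusted p = 0.184 by limma) were not. All 6 tested peroxiredoxins were above 0, between 0.34 and 0.46, and 5 of them had an unadjusted p under 0.05, with none called. Of all genes 17.5% had such a p. The counts by role are on the scale of the main test only. Under the 3 other scalings 5, 6 and 7 of all 43 members had such a p. The largest peroxiredoxin change was that of the mitochondrial Prdx3 (0.46 ± 0.17), and the peroxiredoxin closest to the threshold was Prdx6 (0.45 ± 0.16, adjusted p = 0.137 by limma).

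The reductases and NADPH enzymes were likewise all above 0, from 0.15 to 0.47, with none called, where 19.2% of all genes were below 0. Txnrd1 had 0.47 ± 0.14 (adjusted p = 0.0763 by limma), higher in 11 of 11 libraries than the vehicle median. The 4 tested glutathione peroxidases had a median of 0.15, close to that of all genes, from -0.03 for Gpx8 to 0.35 for Gpx4. Of 16 tested transferases 2 were called, where 0.816% of all genes were, and 14 were above 0. Gsto1, which had -0.03 ± 0.24, and Gstm2, which had -0.07 ± 0.18, were the exceptions.

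The regulators and the other classical NRF2 targets were not called. Nfe2l2 had 0.16 ± 0.14 and Keap1 0.34 ± 0.16 (adjusted p = 0.254 by limma). Nqo1 had 0.28 ± 0.16, Srxn1 0.34 ± 0.19 and Txn1 0.33 ± 0.16. Each of these groups overlapped between vehicle and drug.

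Genotype by genotype the dapagliflozin changes in Akita gave 0 called members by limma. In wild type 38 of 43 members were above 0 (28, 28 and 29 under the other scalings) and 10 (23.3%) had an unadjusted p under 0.05, where 0.0% of all genes were called and 10.1% had such a p. In the knockout 42 of 43 were above 0 (34, 34 and 33) and 7 (16.3%) had such a p, where 0.0% of genes were called and 7.59% had such a p. Under the other scalings 6, 5 and 5 members (14%, 11.6% and 11.6%) had such a p in wild type, against 8.44%, 8.48% and 8.42% of all genes. In the knockout 0 members did under each, against 6.62%, 6.72% and 6.47% of all genes. The member medians were 0.31 in wild type and 0.32 in the knockout, against 0.19 and 0.15 for all genes. The smallest adjusted p among members was 0.220 for Sod1 in wild type.

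The 4 calls depend on how the libraries were put on 1 scale. Under median-of-ratios scaling, rescaling to nuclear protein-coding genes or quantile normalization no member was called, and the changes were 0.55 to 0.57 for Gstm1, 0.50 to 0.52 for Gstp1, 0.35 to 0.38 for Gclc and 0.25 to 0.28 for Sod1. Leaving out any of 11 of the 23 libraries also ended all 4 calls: Akita wild-type vehicle replicates 2 and 5, knockout vehicle replicates 4, 5 and 6, wild-type dapagliflozin replicates 2, 4 and 5, and knockout dapagliflozin replicates 1, 5 and 6. Without wild-type vehicle replicate 6 there was 1 called member, and without wild-type vehicle replicate 4, wild-type dapagliflozin replicate 6 or knockout dapagliflozin replicate 3 there were 2. With 1 library left out, Gstm1 stayed between 0.73 and 0.92, Sod1 between 0.44 and 0.61, Gstp1 between 0.65 and 0.83 and Gclc between 0.54 and 0.71.

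**Figure D3:**
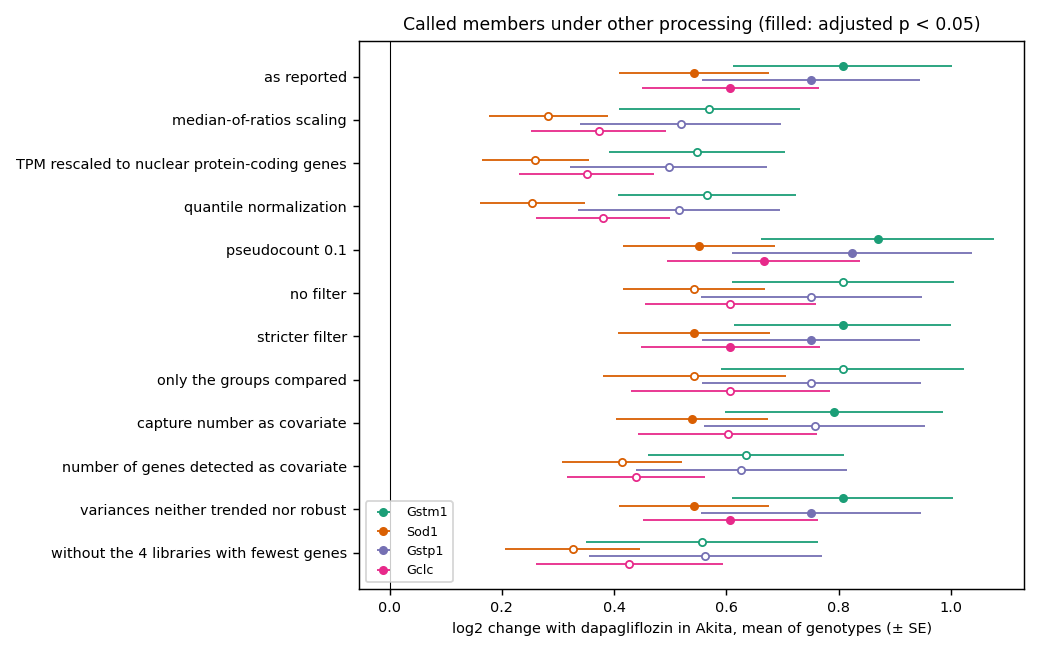
Log2 change with dapagliflozin in Akita, averaged over genotypes (± SE), of the 4 called members as reported and under 11 other ways of processing; filled points have an adjusted p under 0.05. Every point lies above 0, and none of the 4 is called under the 3 other scalings.

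Markers of late proximal tubule moved with the same contrast. All 5 (Slc7a13, Slc22a30, Slco1a1, Cyp7b1 and Slc5a8) were above 0 with dapagliflozin in Akita, with a median change of 0.69, and below 0 with diabetes, with a median of -0.62. Of these, 2 were called with diabetes and 0 with dapagliflozin. Of all genes 84.3% were below 0 with diabetes (median -0.20) and 19.2% with dapagliflozin in Akita (median 0.17). With diabetes the 4 tested thick ascending limb markers (median -0.59), 5 endothelium markers (median -0.37) and 5 leukocyte markers (median -0.34) were also all below 0. With dapagliflozin in Akita their medians were 0.29, 0.10 and -0.04. The 5 late proximal tubule markers summed to 45.4 to 128 TPM in Akita wild type on vehicle and 81.6 to 187 TPM on dapagliflozin. In the knockout they summed to 53.2 to 160 TPM on vehicle and 77.5 to 158 TPM on dapagliflozin. None of these 5 was at 0 in every library of a group. Of the 7 early proximal tubule markers 6 were above 0 with dapagliflozin in Akita, with a median of 0.28. With diabetes 6 were below 0, with a median of -0.18. The 4 libraries with fewer than 9000 genes at 1 TPM were all Akita vehicle libraries, and without them the changes were 0.56 for Gstm1 and Gstp1, 0.43 for Gclc and 0.33 for Sod1, with none called. The part of late tubule or of library complexity in the result was not tested.

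Diabetes itself, averaged over genotypes on vehicle, gave 0 called members by limma, where 0.557% of all genes were called. Of the 43 members 38 were below 0, with a median of -0.22 against -0.20 for all genes, whereas 24, 24 and 22 were below 0 under the 3 other scalings. Those below an unadjusted p of 0.05 numbered 12 (27.9%), all lower, against 18.5% of all genes. Under the other scalings 8 members (18.6%) had such a p under each, against 9.72% to 9.87% of genes. These were not all lower: Gpx1 was higher under each, with an unadjusted p by limma of 0.0113, 0.00586 and 0.00587. Gpx3 was higher at 0.0357 and 0.0240 under median-of-ratios scaling and nuclear rescaling. In the main test the members nearest to the threshold were among those that rose with dapagliflozin. The 2 comparisons share the same Akita vehicle libraries.

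For Sod1 the change with diabetes was -0.47 ± 0.14 (SE), adjusted p = 0.0754 by limma. Its 5 non-diabetic wild-type vehicle libraries were at 74.8, 80.2, 82, 84.8 and 86 TPM, and 5 of the 6 Akita libraries were below their median. Gstm1 had -0.68 ± 0.20, adjusted p = 0.0778 by limma, from 14.1, 14.3, 15.4, 16.1 and 22.1 TPM in non-diabetic wild type on vehicle. Gclc had -0.51 ± 0.16, adjusted p = 0.101 by limma, from 10.3, 10.4, 10.8, 11.9 and 14.8 TPM. Leaving out 1 library brought Sod1 past the threshold in 3 cases, Gstm1 in 2 and Gclc in 1: without non-diabetic knockout vehicle replicate 1 1 member was called, without Akita knockout vehicle replicate 3 there were 2, and without Akita wild-type vehicle replicate 1 there were 3.

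The remaining members with an unadjusted p under 0.05 in diabetes were Txn1 (-0.43), Prdx3 (-0.40), Prdx4 (-0.46), Gstt3 (-0.36), Txnrd1 (-0.30), Gclm (-0.47), Gss (-0.35), Txnrd2 (-0.48) and Gstp1 (-0.40). Prdx4, the peroxiredoxin of the endoplasmic reticulum, with a low median of 2.00 TPM over all libraries, was the member whose groups did not overlap in wild type. The share of all genes without overlap was not counted, so this only describes the values of Prdx4. It was at 2.55, 2.66, 2.72, 3.17 and 3.48 TPM in the non-diabetic libraries and at 0, 1.63 and 2.15 TPM (lowest, median and highest) in Akita. The knockout groups overlapped for Prdx4. Gsta2, Gsta3, Gsto1, Gstm5 and Gstk1 were the 5 members above 0, with changes of 0.04 to 0.19.

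Within genotypes diabetes gave 0 called members by limma. In wild type 37 of 43 were below 0, with a median of -0.26 against -0.15 for all genes (26, 25 and 24 under the other scalings) and 6 (14%) had an unadjusted p under 0.05, with 0.0235% of genes called and 7.6% at such a p. In the knockout 32 were below 0, with a median of -0.20 against -0.24 for all genes (19, 20 and 22) and 2 (4.65%), Pgd (-0.44) and Txnrd2 (-0.67), had such a p, with 0.0% of genes called and 14.4% at such a p. Under the other scalings 5, 4 and 5 members (11.6%, 9.3% and 11.6%) had such a p in wild type, against 8.34%, 8.4% and 8.34% of all genes. In the knockout 6, 5 and 5 members (14%, 11.6% and 11.6%) did, against 7.89%, 7.75% and 7.72% of all genes. The test of the difference between the genotypes gave 0 called members and 0 with an unadjusted p under 0.05 by limma, where 0.0% of genes were called and 3.19% had such a p. For it 4, 3 and 3 members (9.3%, 6.98% and 6.98%) had such a p under the other scalings, against 6.44%, 6.4% and 6.39% of all genes.

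**Figure D4:**
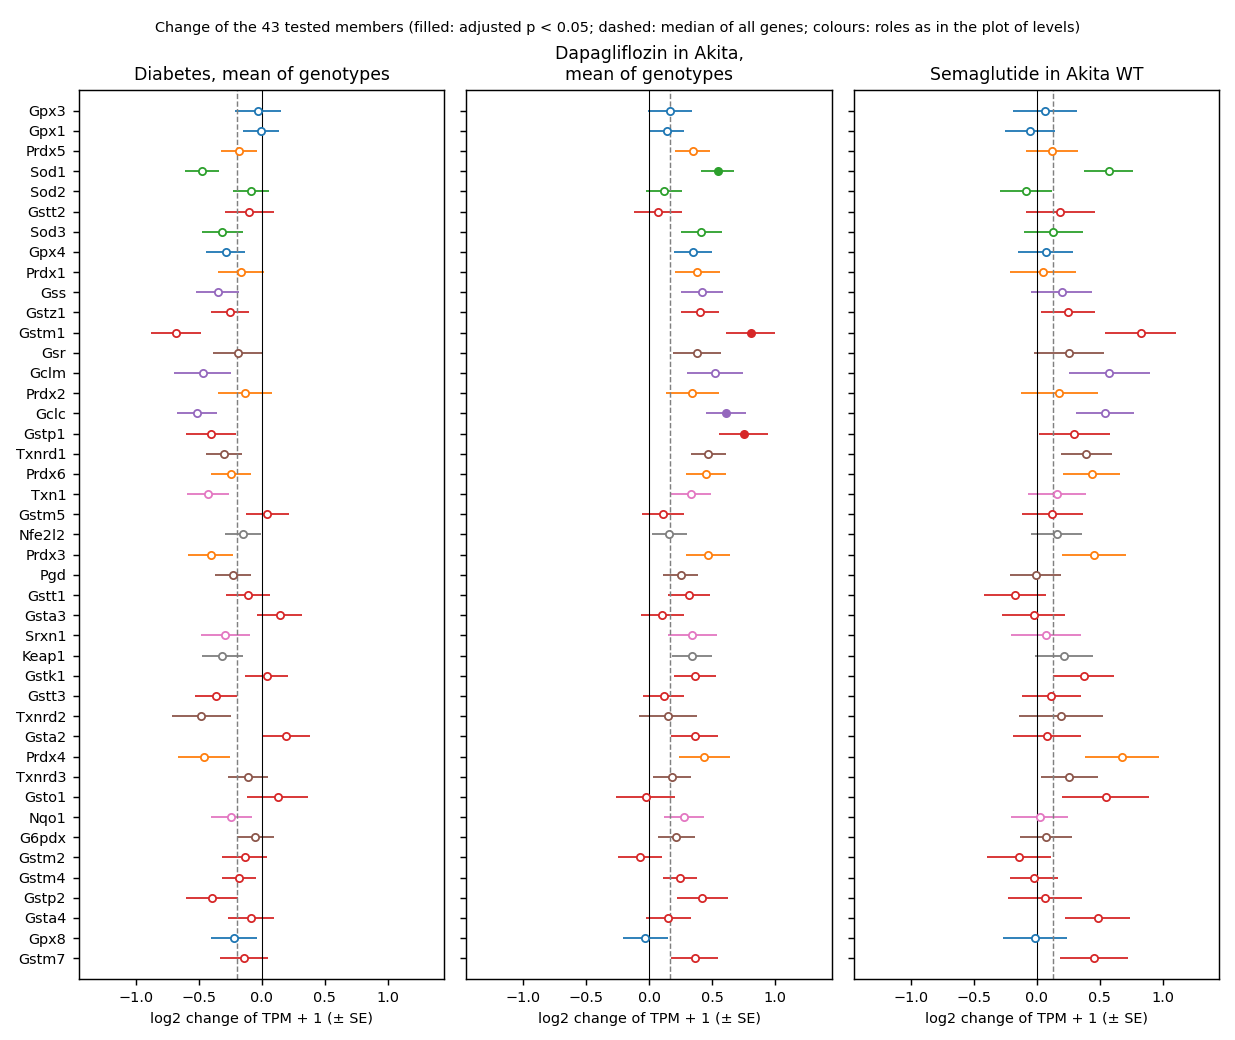
Log2 change of TPM + 1 (± SE) of the 43 tested members, in order of level, with diabetes, with dapagliflozin in Akita and with semaglutide in Akita wild type; filled points are called and the dashed line is the median of all genes. Gstm1, Sod1, Gstp1 and Gclc are the filled points with dapagliflozin, and no point is filled in the other 2 panels.

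Semaglutide in Akita wild type gave 0 called members by limma, where 0.0% of genes were called. Capture numbers in the library titles ran from 88 to 99 on semaglutide and from 1 to 82 on vehicle in Akita wild type. A difference that goes with capture number therefore cannot be told apart from that of the drug. Of the 43 members 35 were above 0, with a median of 0.16 against 0.13 for all genes, and under the 3 other scalings 21, 22 and 23 were above 0. The 4 members (9.30%) with an unadjusted p under 0.05, against 5.82% of genes, were Sod1, Gstm1, Gclc and Prdx4. Late proximal tubule markers were above 0 here too, 5 of 5 with a median of 0.57, and so were thick ascending limb markers, 4 of 4 tested with a median of 0.56. The part of either in these changes was not tested.

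Gstm1 was at 12.4, 13, 14.3, 18.5 and 24.1 TPM on semaglutide, and its change of 0.82 ± 0.28 (SE) had an adjusted p of 0.804 by limma. Sod1 was at 68.1, 68.8, 76.1, 94.8 and 96.8 TPM, with a change of 0.57 ± 0.19 and the same adjusted p. For both genes 5 of 5 libraries exceeded the vehicle median and the ranges overlapped. Gclc had 0.54 ± 0.23 and Prdx4 0.68 ± 0.29, each higher in 4 of 5 libraries.

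Set directly against dapagliflozin in Akita wild type, semaglutide gave 0 called members by limma, and 2 (4.65%) with an unadjusted p under 0.05, where 0.0% of genes were called and 2.61% had such a p. Gstp1 was lower on semaglutide (-0.63 ± 0.29), at 7.52, 7.94, 8.52, 11.6 and 11.6 TPM. Gsto1, an omega-class transferase of low level, was the other. It was at 1.90, 2.33, 2.58, 2.90 and 5.25 TPM on semaglutide and at 0.542, 1.05, 1.29, 1.39 and 1.54 TPM on dapagliflozin, groups that did not overlap, with a change of 0.85 ± 0.36 (adjusted p = 1.0 by limma). The share of all genes without overlap was not counted for this comparison. Capture numbers did not overlap here either, at 88 to 99 on semaglutide and 4 to 78 on dapagliflozin. Their part cannot be told apart from that of the drugs. For Sod1 and Gstm1 the difference between the drugs was -0.13 ± 0.20 and -0.14 ± 0.29, which leaves room for a difference in either direction.

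Without diabetes, dapagliflozin gave 0 called members by limma in either genotype. In wild type 39 of 43 were below 0, with a median of -0.21 against -0.13 for all genes, and 31, 30 and 26 were below 0 under the other scalings. Gstt1 (-0.64 ± 0.27) and Gstt3 (-0.55 ± 0.26), theta-class transferases, were the 2 (4.65%) with an unadjusted p under 0.05, where 0.0% of genes were called and 4.05% had such a p. Gstt1 was at 2.06, 2.14, 2.21 and 5.07 TPM on the drug and at 3.17, 4.07, 5.16, 5.90 and 6.03 TPM on vehicle, so that 3 of 4 treated libraries lay below every vehicle library. In the knockout 30 of 43 were above 0, with a median of 0.08 against -0.06 for all genes (36, 34 and 34 under the other scalings), and Txnrd3 (0.48 ± 0.22) and Gpx8 (-0.63 ± 0.26) had such a p (4.65%), where 0.00785% of genes were called and 3.88% had such a p. There 5, 5 and 4 members (11.6%, 11.6% and 9.3%) had such a p under the other scalings, against 6.56%, 6.44% and 6.5% of all genes.

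None of Gstm1, Sod1, Gstp1 and Gclc was near the threshold without diabetes. Their changes with dapagliflozin in non-diabetic wild type were -0.17, -0.29, 0.12 and -0.26, and in the non-diabetic knockout 0.34, 0.06, 0.03 and 0.23. The interaction, the change with dapagliflozin in Akita less that without diabetes, was above 0 for 43 of 43 members in wild type, with a median of 0.52 against 0.32 for all genes, and for 33, 33 and 31 members under the other scalings. It gave 0 called members by limma and 12 (27.9%) with an unadjusted p under 0.05, where 0.0% of genes were called and 11.2% had such a p. Under each of the other scalings 2 members (4.65%) had such a p, against 7.49% to 7.64% of genes. Sod1 had the smallest p (1.00 ± 0.29, adjusted p = 0.272 by limma), followed by Gclc (1.05 ± 0.34, adjusted p = 0.319 by limma). In the knockout the interaction was above 0 for 38 members, with a median of 0.26 against 0.22 for all genes (24, 24 and 25 under the other scalings). It gave 0 called and 0 with an unadjusted p under 0.05 by limma, where 0.0% of genes were called and 4.98% had such a p. Under the other scalings 2, 2 and 1 members (4.65%, 4.65% and 2.33%) had such a p, against 4.43%, 4.38% and 4.48% of all genes.

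Loss of Sglt1 gave 0 called members by limma. Averaged over the 4 backgrounds that hold both genotypes, 34 of 43 members were above 0, with a median of 0.07, as for all genes, and 19, 19 and 23 were above 0 under the other scalings. Gclm (0.42 ± 0.16) and Gstt3 (0.31 ± 0.12) had an unadjusted p under 0.05 (4.65%), both with an adjusted p of 0.921 by limma, where 0.0235% of genes were called and 4.91% had such a p. In non-diabetic mice on vehicle 1 member (2.33%), Prdx1, had such a p (-0.67 ± 0.27), where 0.0235% of genes were called and 4.61% had such a p. Under the other scalings 5, 5 and 2 members (11.6%, 11.6% and 4.65%) did, against 6.81%, 6.88% and 6.9% of all genes. In Akita mice on vehicle the 1 member (2.33%) with such a p in the main test was Gclm (0.62 ± 0.31), where 0.0157% of genes were called and 1.95% had such a p.

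Gclm was lowest in Akita wild type on vehicle, at 3.78, 7.68 and 11.7 TPM, and reached 5.99, 12.8 and 18.4 TPM in the Akita knockout on vehicle. The 5 wild-type Akita libraries on dapagliflozin fell into a low and a high part, at 6.58, 6.58, 18, 18.1 and 25.1 TPM. Txnrd1 was at 5.45, 8.61 and 12.6 TPM in Akita wild type on vehicle and at 10.5, 10.6, 12.4, 13.6 and 13.9 TPM on dapagliflozin, with overlap. Nfe2l2 ranged from 2.26 to 8.08 TPM over all libraries, and its group means spanned 0.35 on the log2(TPM + 1) scale, against 1.03 for Gclm and 1.14 for Gstm1.

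**Figure D5:**
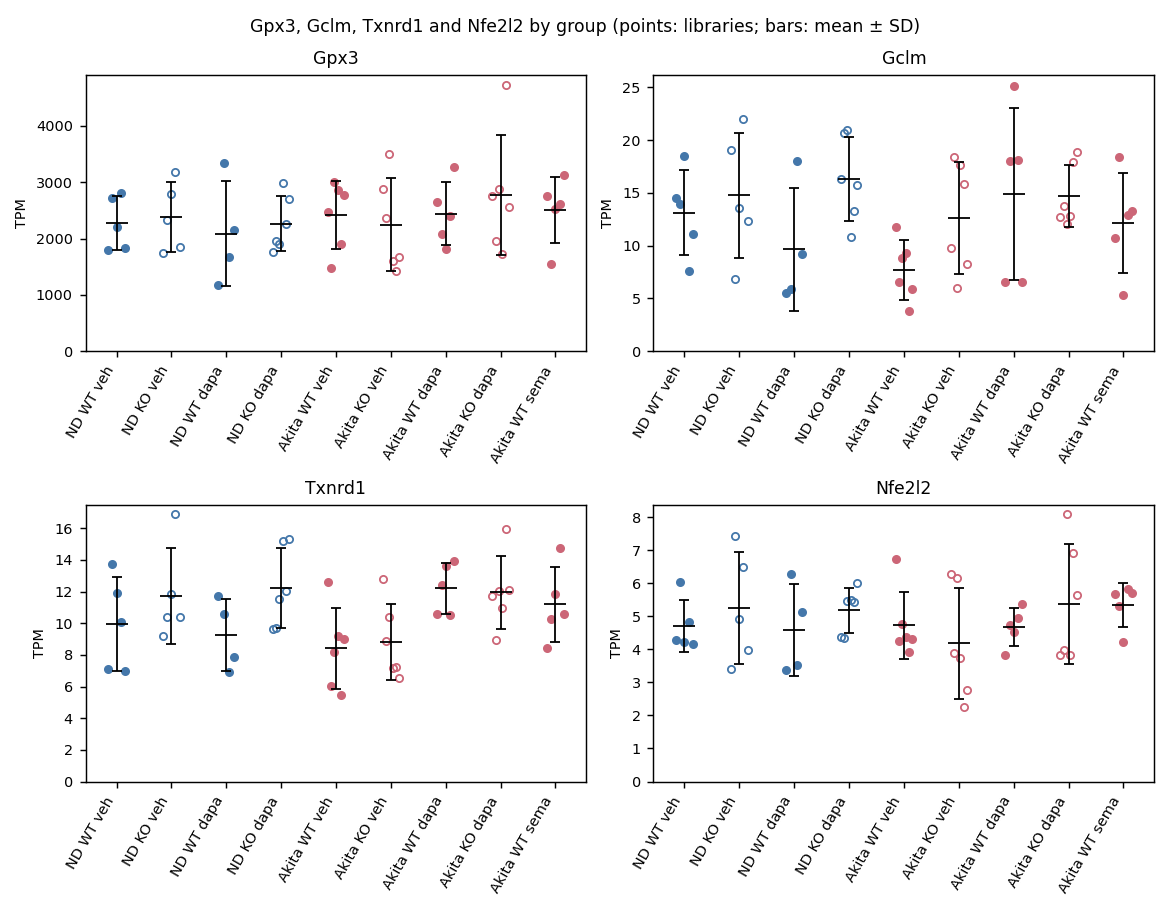
TPM of Gpx3, Gclm, Txnrd1 and Nfe2l2 in each library of the 9 groups, with mean and SD (abbreviations as in the plot of the called members). Gpx3 and Nfe2l2 overlap across all groups, and Gclm has its lowest mean in Akita wild type on vehicle.

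The group means of Gclc were ordered from Akita wild type and Akita knockout on vehicle at the low end to Akita wild type and non-diabetic knockout on dapagliflozin at the high end, a span of 0.86 on the log2(TPM + 1) scale. The tested genes whose 9 group means were most like those of Gclc were Crot, an enzyme of peroxisomal fatty acid oxidation (Pearson r = 0.989), Lonp2, Rab10, Pank3 and Agpat3. For Gclm they were Ubxn1 (r = 0.970), Slc9a3r1, Rmnd5a, Cd36 and Naaa, and for Txnrd1 Pde8a (r = 0.990), Tomm70a, Pter, Klhl20 and Tmed10. For Nqo1 they were Pllp (r = 0.956), Rnf152, Cdr2, Glb1l2 and Gm26982, and for Srxn1 Rcor3 (r = 0.959), Drosha, Ap1s3, Wbp4 and Pycrl. These correlations are over 9 group means that share libraries and scaling, and describe those means only.

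A list of 53 other genes of the pathway was looked up beside the members: NRF2 partners, further NRF2 targets, glutathione breakdown and transport, microsomal transferases, glutaredoxins, and other peroxide enzymes. Of these 46 were tested and 0 were called by limma in any of the 16 comparisons. With dapagliflozin in Akita, averaged over genotypes, 40 of 46 were above 0 (median 0.25), where 19.2% of all genes were below 0 (median 0.17). An unadjusted p under 0.05 was found for 14 (30.4%), against 17.5% of all genes. With diabetes 38 of 46 were below 0 (median -0.24), where 84.3% of all genes were below 0 (median -0.20). Such a p was found for 16 (34.8%), against 18.5% of all genes. Under the other scalings 27, 24 and 25 of 46 were above 0 with dapagliflozin. There 9, 9 and 8 of 46 (19.6%, 19.6% and 17.4%) had such a p, against 11%, 11.1% and 11% of all genes. With diabetes 22 were below 0 under each. Of the 46, 6, 6 and 5 (13%, 13% and 10.9%) had such a p with diabetes, against 9.78%, 9.87% and 9.72% of all genes. The 5 with the highest levels were the ferritin chains Fth1 (547 TPM) and Ftl1 (290 TPM), the glutathione-cleaving brush border enzyme Ggt1 (191 TPM), Sqstm1 (76.4 TPM) and catalase, Cat (67.7 TPM).

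With dapagliflozin in Akita Ggt1 had 0.53 ± 0.16 (adjusted p = 0.0832 by limma), Cat 0.45 ± 0.17 (adjusted p = 0.152 by limma), Fth1 0.30 ± 0.16 and Ftl1 0.01 ± 0.16. Ephx1, the microsomal epoxide hydrolase, was picked out after its values were seen because it went the other way. It had -0.75 ± 0.24 with dapagliflozin (adjusted p = 0.0957 by limma) and 0.67 ± 0.24 with diabetes (adjusted p = 0.147 by limma). Under median-of-ratios scaling it was called lower with dapagliflozin, at -0.91 ± 0.21 (adjusted p = 0.0317 by limma).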

How the data were processed

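The values are TPM per gene, deposited by the authors as 1 table of 48 libraries out of 54 labelled samples; the table's name says that outlying samples were removed, and the other 6 samples are not analysed here. Per the submitters' processing notes, Salmon and MultiQC 1.8 were used with GRCm38; no source used here gives the Salmon version or read filters. RNA was stranded total RNA with DV200 above 30%, per the labels' protocols. TPM keeps no read depth, so no counting error was computed, and the number of libraries limits precision.

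Libraries were assigned to 9 groups from their labels. TPM + 1 was log2-transformed, genes with at least 1 TPM in at least 5 libraries were kept, and limma 3.58.1 in R 4.3.3 was fitted to the 9 groups with trended, robust variances and 39 residual degrees of freedom. The tests were two-sided, with p-values adjusted over all genes tested within each of 16 comparisons. Alternatives were 3 scalings, a pseudocount of 0.1, no filter or a stricter filter (24 libraries), the compared groups only, capture number or genes detected as covariate, other variance settings, no low-complexity libraries, and each library left out.

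The members and lists were chosen with earlier results of these data known. Named members were those called, the 3 highest and 3 lowest statistics of each comparison other than interactions, the 15 highest levels, and 15 listed core genes. Gene positions, shared 31-base stretches and overlaps came from GENCODE M21 on GRCm38, and promoter sequences from RefSeq (GRCm38.p6).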

Additional observations from a re-analysis of the deposited data

Results flagged for a closer look

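Among the 17 members named for their level or their call, 7 of 153 groups (4.58%) held a library far from the rest by Dixon's criterion, where chance gives about 1 in 20. Gstt2 had 2 of them, both the highest library of a non-diabetic wild-type group: replicate 3 on vehicle at 115 TPM, with the next at 57.2 TPM, and replicate 3 on dapagliflozin at 81.8 TPM, with the next at 44 TPM. Gsr stood at 30.1 TPM in Akita knockout dapagliflozin replicate 5, with the next at 16.1 TPM. Gstm1 stood at 22.1 TPM in non-diabetic wild-type vehicle replicate 4, with the next at 16.1 TPM, which raises the mean that the Akita groups are set against. Prdx1 was at 62.5 TPM in Akita wild-type dapagliflozin replicate 5, with the next at 46.7 TPM. Prdx5 was at 146 TPM in Akita knockout vehicle replicate 3, with the next at 99.7 TPM. Sod2 was at 93.6 TPM in Akita knockout dapagliflozin replicate 1, with the next at 71.3 TPM. The 7 libraries were each the highest of their group.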

How the results depend on the processing

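The 4 members called with dapagliflozin in Akita, averaged over genotypes, became 0 with median-of-ratios scaling, nuclear rescaling, quantile normalization, no filter, only the groups compared, the number of genes detected as covariate, or without the 4 libraries with fewest genes, and 2 with capture number as covariate. They numbered 0 to 5 with 1 library left out. In diabetes averaged over genotypes the count was 0 to 3 with 1 library left out. Over the 11 alternatives other than leaving out 1 library, the adjusted p by limma ran from 0.0246 to 0.701 for Gstm1, 0.0293 to 0.701 for Sod1, 0.0345 to 0.701 for Gstp1 and 0.0374 to 0.784 for Gclc. The other pathway genes called with dapagliflozin numbered 1 under the 3 scalings and with genes detected as covariate (Ephx1), 0 to 4 with 1 library left out, and 0 to 2 in diabetes. Counts of called members in the other 14 comparisons were 0 under every alternative run. The cause of these differences was not tested.

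Changes near 0 reversed. In Akita knockout on dapagliflozin Gpx8 was -0.0099, -0.024 and -0.0047 under the 3 scalings and -0.16 with pseudocount 0.1. There Gstm2 was -0.049, -0.060 and -0.047 under the scalings, -0.25 with pseudocount 0.1, -0.062 with genes detected as covariate and -0.053 without the 4 libraries, and Gsta4 was 0.11 with pseudocount 0.1. Averaged over genotypes Gsto1 was 0.049 with pseudocount 0.1. With 1 library left out, diabetes in wild type ranged over -0.012 to 0.20 for Gpx3, -0.094 to 0.17 for Gsta2 and -0.087 to 0.39 for Gsto1. Dapagliflozin in non-diabetic wild type ranged over -0.030 to 0.27 for Gstp1 and -0.096 to 0.42 for Srxn1. In Akita wild type it ranged over -0.21 to 0.0038 for Gpx8, in Akita knockout over -0.19 to 0.17 for Gpx8, -0.26 to 0.048 for Gsta4 and -0.12 to 0.18 for Gstm2, and averaged over -0.16 to 0.035 for Gpx8, -0.14 to 0.0076 for Gstm2 and -0.15 to 0.059 for Gsto1. Semaglutide ranged over -0.25 to 0.011 for Gstm2 and -0.19 to 0.031 for Sod2.

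No paired analysis was possible because replicate numbers only name libraries in record order. Low TPM, with unknown depth, limits what can be said of members near 1 TPM such as Nqo1, G6pdx and Gsto1.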
